A study of Mus musculus with 7 samples.

Results

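Whole bone marrow of transplanted mice was compared between recipients of cells carrying an ABCG2 transgene (2 arrays) and recipients of cells carrying a mock control transgene (3 arrays). The arrays were chosen by their labelled transgene and make up 5 of the 7 Affymetrix Mouse430_2 arrays of the series. The other 2 arrays hold the sorted GFP-negative and GFP-positive fractions of EZH2-Mt marrow, 1 array each, and serve here only to show where mock and ABCG2 marrow lie. Neither ABCG2 nor mock marrow was sorted, so cells with and without a transgene were measured together. The strain, the age, the vector, the time after transplantation and the share of donor cells are not given in the sources used here. The labels mention a recipient mouse for every array but give the mice no numbers, and p-values therefore cover the spread among these arrays alone, which may be technical. In such bulk samples fewer cells of a type and less RNA per cell cannot be told apart.

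Blood cells form in marrow through progenitors that lose lineage options step by step. Lymphoid progenitors carry the receptors Flt3 and Il7r. Those that commit to the B lineage gain Ly6d and then, under the factors Tcf3, Ebf1, Foxo1 and Pax5, the parts of the pre-B cell receptor. Granulocytes and monocytes arise from a branch governed by PU.1 (encoded by Spi1) and the C/EBP factors. Abcg2 encodes an efflux pump that marks stem and progenitor cells.

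All values below are on the deposited log scale, read as base 2, and each probe set was centred on its median over the 7 arrays. A value therefore places an array against the other arrays for the same gene and gives no level, and values of different genes cannot be ranked. Differences are the ABCG2 mean minus the mock mean with limma's standard error. A gene is said to rise or fall where its adjusted p in limma's test (Benjamini-Hochberg over 8378 genes) was under 0.05. Only probe sets with a Present or Marginal call on every array are in the files, so a gene undetected on any array has no value here. Probe sets with several gene symbols or none were also left out of the gene values. Ebf1, Pax5, Cd79a, Rag1, Rag2, Dntt, Vpreb1 and Igll1, which mark the pro-B and pre-B stages directly, have no value here. Which filter removed each of them was not examined.

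The arrays differed beyond single genes. The SD over probe sets was 0.33 to 0.42 on the mock arrays and 1.06 and 1.13 on the ABCG2 arrays. The bioB hybridisation controls, bacterial transcripts added in fixed amount and the scarcest of these spikes, had medians of -3.07 and -3.20 on the ABCG2 arrays and -0.03 to 0 on the mock arrays. The bioD controls lay much closer, at -0.10 and -0.20 against -0.16 to 0.01. The 18S ribosomal RNA probe sets were at -0.83 and -1.37 on the ABCG2 arrays and at 0 to 0.48 on the mock arrays. An excess of the 3' over the 5' probe set is a sign of RNA breakage. The difference was taken between centred values, so it compares arrays and gives no excess within an array. For Actb it was 0.40 and 0.42 on the ABCG2 arrays against -0.05 to 0.04 on the mock arrays. For Gapdh it was -0.08 and -0.11 against -0.08 to 0.10. On the EZH2-Mt GFP-negative and GFP-positive arrays it was 0.14 and 0.31 for Actb and 0.09 and 0.35 for Gapdh. The part of these shifts in the results was not tested. Title wording differs by group, with BMCs and Exp on the ABCG2 arrays and BMT on the mock arrays. The titles of both ABCG2 arrays also hold a tag of unstated meaning that is missing from the other titles. If it marks a batch, batch and group cannot be told apart.

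**Figure D1:**
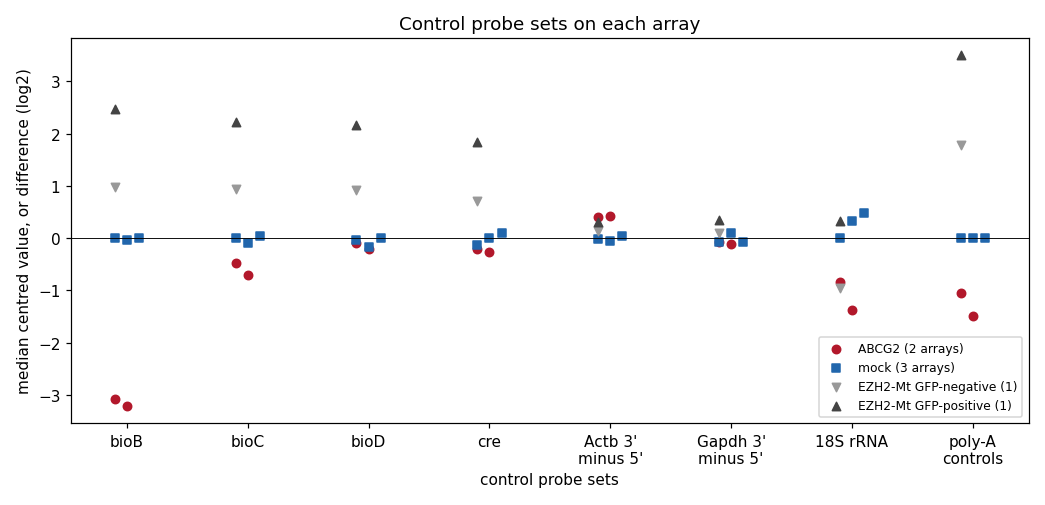
Control probe sets on each of the 7 arrays, as centred log2 values (for Actb and Gapdh, the 3' value minus the 5' value), with arrays coloured by group and 1 point per array. The ABCG2 arrays lie at -3.07 and -3.20 for bioB and close to the mock arrays for bioD.

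In ABCG2 marrow 2983 of 8378 genes (35.6%) rose and 2196 (26.2%) fell, and counts within gene groups are read against those shares. With the test set against a 2-fold change (limma's treat, adjusted p under 0.05), 496 genes (5.92%) rose and 659 (7.87%) fell, or 802 probe sets (4.93%) and 1131 (6.96%). The median difference over all genes was 0.15. Of the 5122 probe sets called higher (31.5%), 4318 also lay above both EZH2-Mt arrays on both ABCG2 arrays. Of the 4112 called lower (25.3%), 3707 lay below both. In most called probe sets the ABCG2 arrays thus stood apart from the other 5 arrays and not from the mock arrays alone. Both ABCG2 arrays were above all mock arrays in 3706 genes (44.2%) and below them in 2737 (32.7%). The mouse Abcg2 gene itself was lower by 0.86 ± 0.13 (limma adjusted p = 0.00168), at -0.92 and -0.91 on the ABCG2 arrays and at 0.02, -0.17 and 0 on the mock arrays. Whether this probe set would bind the transgene's transcript is not known, as the species of the transgene is not given, so the value does not check the label.

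The 25 largest rises ran from 3.79 to 7.20 and the 25 largest falls from 5.81 to 8.19 in size, with adjusted p from 7.33e-06 to 0.0156 and from 7.33e-06 to 0.00033 in limma's test. The rises held Il7r, Ly6d, Spib, Pou2af1, Mzb1 and Cd79b, which are known from lymphoid progenitors and B-lineage cells. Of these, Ly6d, Spib and Mzb1 are also in the plasmacytoid dendritic cell list below. Among the rises were also Klrd1, Gimap4 and Gimap6, known from NK cells and lymphocytes, and Socs2 and Cnn3, which are in the pro-B and pre-B list. Other rises were genes of metabolism and signalling with no such tie. The falls held Mpo, Ctsg, Ms4a3, Mmp8, Cd177 and Cd14, which are known from granulocytes, their precursors and monocytes. Both ABCG2 arrays lay beyond both EZH2-Mt arrays for 23 of the 25 rises and for all 25 falls. The exceptions among the rises were Il7r and Klrd1. 24 of the rises and all 25 falls also passed the test against a 2-fold change, and Gimap4 did not (limma treat, adjusted p = 0.0816).

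**Figure D2:**
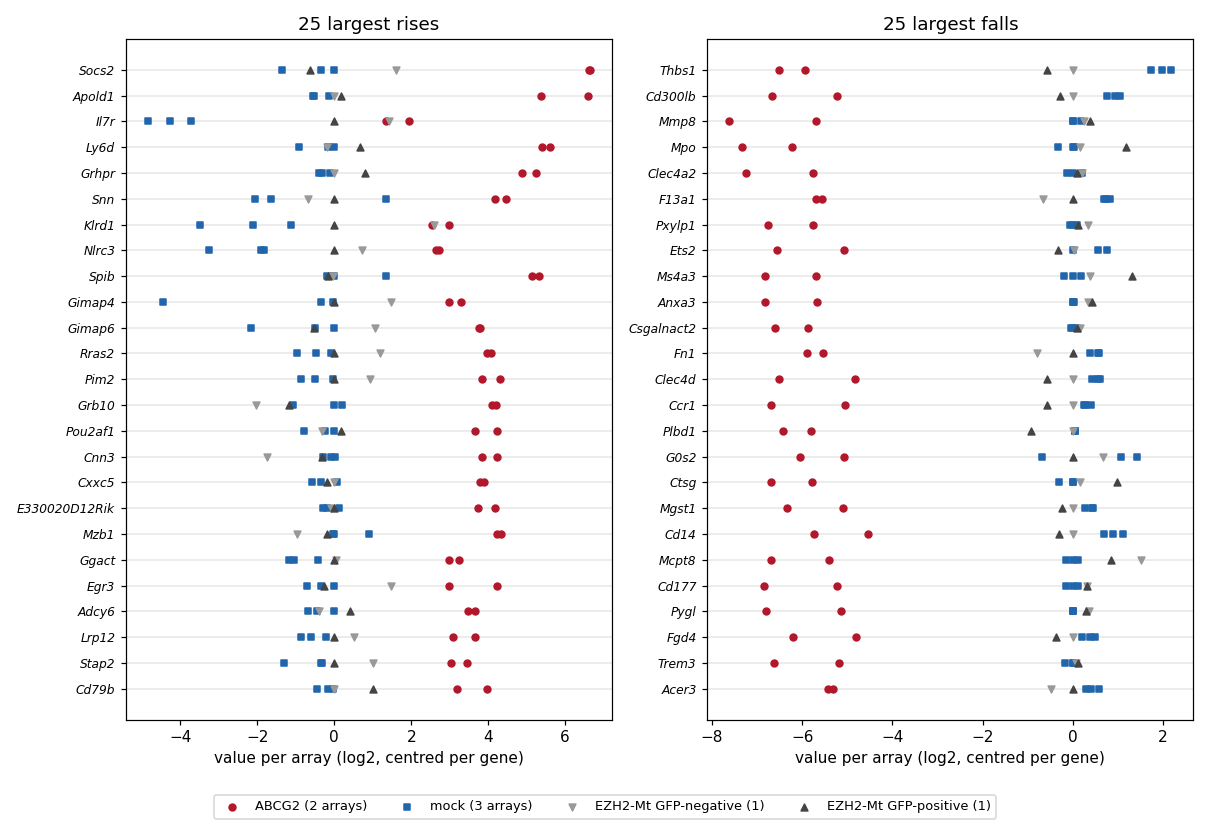
The 25 genes with the largest rise and the 25 with the largest fall in ABCG2 marrow, 1 point per array, on the centred log2 scale, coloured by group. ABCG2 points (2 arrays) and mock points (3 arrays) do not overlap in any of these genes, which the choice of genes required. For Il7r (1.43) and Klrd1 (2.58) the GFP-negative point lies between the ABCG2 points.

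The start regions of 2 rises and 2 falls are printed here to show the sequences at the opposite ends of the comparison. They are the genes of largest rise and fall with an entry in the table of start regions. Each is the 300 bases around the gene's start, 5' to 3' on the gene's strand, from RefSeq on GRCm38.p6. Apold1 lies at chr6:134981751-134982050 on the plus strand and Il7r at chr15:9529827-9530126 on the minus strand. Cd300lb lies at chr11:114934322-114934621 on the minus strand and Mmp8 at chr9:7558179-7558478 on the plus strand. Capitals mark matches on either strand to the C/EBP motif TTNNGCA, the PU.1 motif GAGGAA, the E box CAGGTG and the Ikaros motif TGGGAA.
Apold1: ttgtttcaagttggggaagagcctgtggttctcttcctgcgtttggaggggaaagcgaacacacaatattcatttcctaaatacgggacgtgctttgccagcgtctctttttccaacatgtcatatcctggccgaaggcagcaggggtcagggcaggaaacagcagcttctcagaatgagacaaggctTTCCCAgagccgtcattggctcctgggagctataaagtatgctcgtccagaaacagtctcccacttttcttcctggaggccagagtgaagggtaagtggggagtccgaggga
Il7r: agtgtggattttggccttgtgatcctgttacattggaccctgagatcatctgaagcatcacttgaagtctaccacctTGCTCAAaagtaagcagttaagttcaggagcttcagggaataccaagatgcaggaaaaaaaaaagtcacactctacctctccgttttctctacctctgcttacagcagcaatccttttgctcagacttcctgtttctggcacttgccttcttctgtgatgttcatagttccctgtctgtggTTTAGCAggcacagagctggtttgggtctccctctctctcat
Cd300lb: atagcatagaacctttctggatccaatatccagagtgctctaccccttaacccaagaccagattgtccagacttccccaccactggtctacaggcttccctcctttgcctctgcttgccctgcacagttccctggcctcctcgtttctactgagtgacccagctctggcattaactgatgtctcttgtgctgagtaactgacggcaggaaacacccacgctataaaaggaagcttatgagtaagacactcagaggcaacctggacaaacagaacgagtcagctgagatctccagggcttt
Mmp8: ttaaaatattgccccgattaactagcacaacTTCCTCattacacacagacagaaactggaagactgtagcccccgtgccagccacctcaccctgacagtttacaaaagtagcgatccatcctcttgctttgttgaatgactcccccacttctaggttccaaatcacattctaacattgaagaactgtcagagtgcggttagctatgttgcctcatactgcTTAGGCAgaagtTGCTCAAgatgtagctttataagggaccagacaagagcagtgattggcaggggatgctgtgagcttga
The regions of Il7r and Mmp8 hold 2 C/EBP matches each, and that of Mmp8 also holds 1 PU.1 match. The regions of Apold1 and Cd300lb hold 0 matches to either motif, and that of Apold1 holds 1 Ikaros match. The regions were on hand for 16 of the 25 rises and 20 of the 25 falls. A C/EBP match was in 8 of the 16 and 8 of the 20, against 31.2% of the 6929 regions of measured genes. A PU.1 match was in 5 of the 16 and 11 of the 20, against 26.8% of the regions of measured genes. The B-lineage EBF motif CCCNNGG was in 12 of the 16 and 9 of the 20, against 63.1%. The E box CAGGTG was in 4 and 5, against 15.9%. The Ikaros motif TGGGAA was in 1 and 4, against 22.04%. The Runx motif TGTGGT was in 3 and 3, against 12.1%, and the octamer ATGCAAA in 1 and 0, against 3.13%. A match is a description of letters, not a bound site.

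Receptor and surface genes of early lymphoid cells were among the rises. Il7r, the interleukin-7 receptor chain on which lymphocyte precursors depend, was at 1.35 and 1.95 on the ABCG2 arrays and at -4.84, -3.74 and -4.26 on the mock arrays. It was the mock arrays that lay low here, since the EZH2-Mt fractions were at 1.43 and 0. The difference was 5.93 ± 0.34 (limma adjusted p = 3.57e-05). Ly6d, which separates B-committed from uncommitted common lymphoid progenitors, was at 5.40 and 5.62 against 0, -0.16 and -0.92, a rise of 5.86 ± 0.28 (limma adjusted p = 2.04e-05). For Ly6d the ABCG2 arrays were the ones that stood apart, with the EZH2-Mt fractions at -0.20 and 0.66. Cd79b, a signalling chain of the B cell and pre-B cell receptors, was at 3.18 and 3.97 against -0.04, -0.16 and -0.44.

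The largest rise was in Socs2, a feedback inhibitor of cytokine receptor signalling, at 6.61 and 6.65 on the ABCG2 arrays and -1.36, 0 and -0.34 on the mock arrays. Its difference of 7.20 ± 0.38 corresponds to 147-fold on base 2 (limma adjusted p = 2.81e-05). Grb10, an adaptor that binds insulin and growth factor receptors, was at 4.09 and 4.20 against -1.08, 0.20 and 0. Pim2, a survival kinase induced by cytokines, was at 3.83 and 4.31 against -0.87, -0.03 and -0.50. Rras2, a Ras-type GTPase, and Stap2, a signalling adaptor, rose by 4.54 ± 0.26 and 3.91 ± 0.33. The part of the rises that codes for signalling proteins also held Adcy6, an adenylyl cyclase (3.95 ± 0.22), and Lrp12 (3.94 ± 0.25).

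Transcription factors and cofactors among the 25 rises were Spib, Pou2af1, Egr3 and Cxxc5. Spib, which encodes a B cell relative of PU.1, was at 5.13 and 5.33 against 0, 1.35 and -0.18. Pou2af1, the octamer coactivator of B cells, was at 3.64 and 4.24 against 0, -0.25 and -0.78. Egr3, an early growth response factor, differed between the ABCG2 arrays (4.23 and 2.98) but both lay above the mock arrays (0, -0.34 and -0.72). Mzb1, an endoplasmic reticulum protein of B-lineage cells, was at 4.24 and 4.32 against 0.91, 0 and -0.04. Cnn3, an actin-binding calponin, rose by 4.15 ± 0.18, with 3.60 to 4.76 over its 6 probe sets, and was the only gene among the 50 with more than 1 probe set.

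Several rises have no place in the common lists of blood cell markers. Apold1, an apolipoprotein-like gene known from endothelium, was at 6.60 and 5.37 against -0.56, -0.52 and -0.13. Grhpr, glyoxylate and hydroxypyruvate reductase, was at 4.87 and 5.23 against -0.41, -0.33 and -0.10. Ggact, an enzyme of glutamylamine breakdown, rose by 3.99 ± 0.25, and E330020D12Rik by 4.09 ± 0.20. Snn had 1 mock array apart from the others: it was at 4.17 and 4.45 on the ABCG2 arrays and at -2.06, 1.35 and -1.63 on the mock arrays. Its call was lost with quantile normalization (limma adjusted p = 0.0667). Among the next 25 genes by size, chosen after their values were seen, Bach2 (3.47 ± 0.23) is in the pro-B and pre-B list below. These 25 included Arpp21 (3.72 ± 0.20), a regulator of calcium signalling in which a microRNA lies. They also held the fatty acid elongase gene Elovl6 (3.57 ± 0.16), Xrcc6, which encodes the Ku70 subunit of the end-joining machinery (3.45 ± 0.15), and the atypical cadherin gene Celsr1 (3.45 ± 0.21).

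Of the falls, thrombospondin 1 had the largest. Thbs1 was at -5.93 and -6.51 on the ABCG2 arrays and at 1.74, 1.97 and 2.19 on the mock arrays, with the EZH2-Mt fractions between them at 0 and -0.57. Of the primary granule genes, Mpo was at -6.22 and -7.33 against -0.32, 0.03 and 0, and Ctsg, which encodes cathepsin G, was at -5.78 and -6.68 against -0.31, 0 and 0. Mmp8, the collagenase of later granules, was at -5.69 and -7.62 against mock values from 0 to 0.19. In 23 of the 25 largest falls ABCG2 replicate 2 was below ABCG2 replicate 1.

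Falls outside the granule proteins covered metabolism, lipid handling and the cytoskeleton. Pygl, the glycogen phosphorylase of liver and leukocytes, fell by 5.98 ± 0.43, and Acer3, an alkaline ceramidase, by 5.81 ± 0.14. G0s2, an inhibitor of the triglyceride lipase, was at -5.08 and -6.04 against -0.68, 1.07 and 1.43, so that mock replicate 1 lay apart. Mgst1, a microsomal glutathione transferase, fell by 6.10 ± 0.34, and Fgd4, an exchange factor for Cdc42, had a fall of the same order (-5.87 ± 0.38). Mcpt8, a basophil protease, was at -5.40 and -6.69 against -0.15, 0 and 0.12. The next 25 falls held the basophil and mast cell enzyme Hdc, histidine decarboxylase (-5.31 ± 0.56), and the eosinophil peroxidase gene Epx (-5.55 ± 1.02), for which mock replicate 1 (-1.51) lay far below the other mock arrays (1.87 and 1.52).

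Lists of stage genes were then read side by side, as some of the large rises are known from lymphoid stages. These lists and those that follow were chosen with earlier results of these data known. The lymphoid progenitor list holds Il7r and Ly6d, given above among the largest rises, so its count and median are not independent of them. Of 25 lymphoid progenitor genes, 14 were measured, 11 rose, 0 fell and 3 did not pass, with a median difference of 1.48 against 0.15 for all genes. Flt3, the cytokine receptor of early lymphoid progenitors, was at 2.28 and 2.31 against -1.18, 0 and -0.46, a rise of 2.84 ± 0.32 (limma adjusted p = 0.000502). Egfl7 rose by 2.77 ± 0.17, Sox4 by 2.65 ± 0.26, and Bcl11a, a zinc finger factor needed for B cell formation, by 2.37 ± 0.18. Notch1 also rose, at 0.80 and 1.15 against -0.08, 0.07 and -0.06, and Satb1, a chromatin organiser of early lymphoid cells, rose by 1.15 ± 0.21. Kit, the stem cell factor receptor, had 0.37 ± 0.14 and did not pass (limma adjusted p = 0.055), with its 2 probe sets at -0.27 and 1.02. Cd93, a marker of immature progenitors and B cells, had -0.05 ± 0.18. Among the members that passed, Notch1 and Cd27 did not with quantile normalization, nor did Cd48, which was also lost without mock replicate 1 or ABCG2 replicate 2.

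Pro-B and pre-B genes were divided. Of 31, 14 were measured, 8 rose, 4 fell and 2 did not pass, with a median of 1.36. Socs2 and Cnn3 had been put in this list with their rises known, so its count is not independent of them. Besides those, Bach2, a repressor that steers progenitors to the B lineage, was at 2.67 and 2.59 against -1.27, -0.57 and -0.68. Foxo1, which drives Il7r and the recombination genes in pro-B cells, was at 2.10 and 1.14 against -0.77, -0.74 and -1.16, and Erg rose by 1.94 ± 0.15. The adaptor gene Blnk had 0.77 ± 0.51 (limma adjusted p = 0.227) and Myb 0.29 ± 0.19. The falls were in Spn, the sialophorin CD43 (-1.41 ± 0.19), Tifa (-1.33 ± 0.14), Cd24a, the heat-stable antigen (-0.90 ± 0.21), and Cxcr4 (-0.75 ± 0.24). Cd24a and Cxcr4 lost their calls with quantile normalization, and Cxcr4 also without mock replicate 2 or 3 or ABCG2 replicate 1.

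The median was smaller for the list of later B cell stages than for the pro-B and pre-B list, whose median is not independent of Socs2 and Cnn3. Of 31 immature and mature B cell genes, 18 were measured, 7 rose, 2 fell and 9 did not pass, with a median of 0.32. Without mock replicate 1, 5 fell. The median was 0.58 without ABCG2 replicate 1, 0.07 without ABCG2 replicate 2 and 0.06 with quantile normalization. Cd22, an inhibitory lectin of B cells, was at 0.76 and 1.81 against -2.25, -0.95 and -2.32. H2-Ob and H2-Oa, the chains of the peptide-loading modulator H2-O, rose by 2.82 ± 0.27 and 1.30 ± 0.16. The MHC class II genes H2-Aa and H2-Ab1 had -0.83 ± 0.42 and -1.06 ± 0.44 and did not pass, and both had mock replicate 1 below the other mock arrays. Ms4a1, which encodes CD20, was at -1.13 and 0.26 against 0.03, -1.38 and -1.59, so the groups overlapped. Ighm, the heavy chain of immunoglobulin M, had -1.54 ± 0.83 over 7 probe sets (limma adjusted p = 0.149), with mock replicate 1 at 2.50 and the other mock arrays at -0.41 and -0.05. The falls were in Fcgr2b, the inhibitory Fc receptor shared with myeloid cells (-4.03 ± 0.13), and Cd55 (-3.54 ± 0.14).

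The genes of plasma cells, plasmacytoid dendritic cells, T cells and NK cells gave mixed counts, and Ly6d, Spib, Mzb1 and Bcl11a stand in the plasmacytoid list as well as in others. Of 9 plasma cell genes measured, 3 rose, 2 fell and 4 did not pass, with a median of -0.11. Single arrays decided that median's sign and size. It was 0.0043 without mock replicate 1, 0.03 without ABCG2 replicate 2 and -0.37 without ABCG2 replicate 1. Without mock replicates 2 and 3 it was -0.19 and -0.16. Without mock replicate 1 or 2, 1 fell. Xbp1, the secretory factor, had -0.30 ± 0.15 and Jchain rose by 1.52 ± 0.38. Of 21 plasmacytoid dendritic cell genes measured, 7 rose, 6 fell and 8 did not pass (9 rose and 8 fell without ABCG2 replicate 1). Tcf4, the E protein that defines that cell, rose by 2.54 ± 0.18 and Ptprs was at 1.99 and 2.08 against -0.07, 0 and 0.19, while Irf8 and Zeb2, which it also needs, fell by 2.50 ± 0.21 and 3.23 ± 0.26. The plasmacytoid marker Siglech is not among the values used here. Of 29 T cell genes only Cd3d and Cd28 were measured. Cd3d had -0.60 ± 0.47 and passed as lower only without mock replicate 1, and Cd28, a costimulatory receptor, rose by 2.58 ± 0.70 but lost its call with quantile normalization (limma adjusted p = 0.0532) and without ABCG2 replicate 1 (limma adjusted p = 0.0894). Of 8 NK and innate lymphoid genes measured, 4 rose, 1 fell and 3 did not pass, and 2 rose and 0 fell with quantile normalization. Without mock replicate 3 or ABCG2 replicate 2, 2 fell. Klrd1, a chain of NK receptors, rose by 5.01 ± 0.62. The mock arrays lay low for it (-3.48, -1.13 and -2.12). Its EZH2-Mt GFP-negative value (2.58) was between the ABCG2 values (2.54 and 2.98), and its GFP-positive value was 0. Il18r1, the interleukin-18 receptor chain, rose by 3.51 ± 0.15, while Nkg7, a granule protein, fell by 1.53 ± 0.21, a call lost with quantile normalization.

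The genes of other marrow cells moved beside these. All 20 measured genes of the neutrophil and monocyte list fell, with a median of -5.16 (18 fell with quantile normalization, with a median of -3.36), and their median value was -4.12 and -5.65 on the ABCG2 arrays against -0.20 to 0.08 on the mock arrays. Of 12 erythroid genes measured, 3 rose, 3 fell and 6 did not pass, with a median of 0.23. Leaving out mock replicate 1 made that median -0.08 and leaving out ABCG2 replicate 2 made it -0.06, with 1 rise. It was 0.48 and 0.46 without mock replicates 2 and 3, and 0.63 with quantile normalization. Of 7 megakaryocyte genes measured, 6 fell, among them Selp, which encodes P-selectin (-2.88 ± 0.16). Of 3 stroma, bone and vessel genes measured, Vcam1 and Angpt1 fell and Acp5 rose (2.20 ± 0.28). The part of a changed share of myeloid cells in any rise was not tested.

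**Figure D3:**
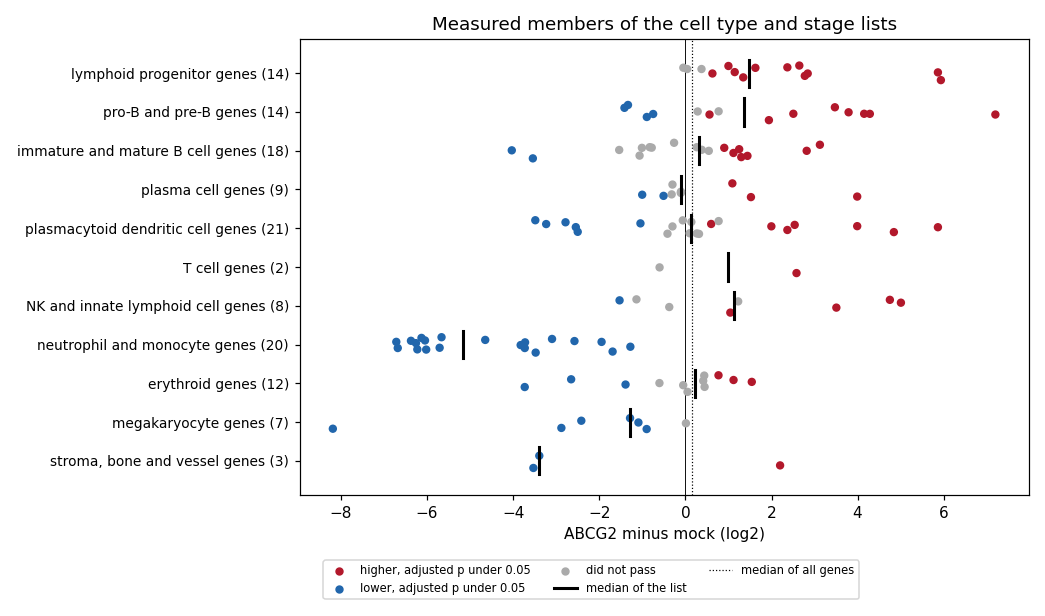
Differences of ABCG2 from mock marrow (log2, 1 point per measured gene) for the lists of lymphoid stages and of other marrow cells, coloured by limma's call. Black bars mark list medians and the dotted line the median of all genes (0.15). The lists were chosen with earlier results of these data known. Of the lymphoid progenitor genes 11 of 14 are called higher, with a median of 1.48, while later B cell genes scatter on both sides of 0, and neutrophil and monocyte genes lie below 0 with a median of -5.16.

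Lymphoid and myeloid transcription factors moved in opposite directions. Of 22 lymphoid factors measured, 17 rose, 1 fell and 4 did not pass, with a median of 1.51. The counts were 17 and 1 when any single array was left out. This list holds Spib and Pou2af1, given above among the largest rises. It also shares Bcl11a, Sox4, Satb1, Mef2c, Ikzf1, Bach2 and Foxo1 with the stage lists. Its count and median are therefore not independent of those results. The E proteins, which open the lymphoid program, rose together: Tcf3 was at 1.89 and 2.13 against -0.37, 0 and -0.02, Tcf12 rose by 1.86 ± 0.14 and Tcf4 by 2.54 ± 0.18. Aff3 rose by 2.49 ± 0.21 and Mef2c, a factor of lymphoid against myeloid choice, by 1.63 ± 0.20, with 0.85 to 2.25 over its 5 probe sets. Ikzf1, which encodes Ikaros, had 0.04 ± 0.13 and did not pass (limma adjusted p = 0.788), and Ets1 had 0.32 ± 0.17. The single fall was in Bcl6, the repressor of germinal centre B cells, at -2.45 and -2.61 against 0.30, 0.15 and 0.24.

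Of 31 myeloid and erythroid factors measured, 17 fell, 4 rose and 10 did not pass, with a median of -0.79. Ets2 had the largest fall, at -5.07 and -6.57 against 0, 0.76 and 0.55. Cebpd, a C/EBP factor of maturing myeloid cells, was at -5.05 and -5.25 against 0.16, 0 and 0.30, a difference of -5.31 ± 0.15 (limma adjusted p = 7.33e-06). Spi1 was at -2.43 and -2.44 against 0.39, 0.37 and 0.34, and Mitf, Nfe2 and Irf8 fell by 4.67 ± 0.21, 3.73 ± 0.18 and 2.50 ± 0.21. Runx1, which serves all blood lineages, had 0.16 ± 0.13 and did not pass, with probe sets from -0.41 to 0.72. The rises, in Maf, Egr1, Nr4a1 and Elf1, did not pass with quantile normalization, and 2 rose without mock replicate 3, ABCG2 replicate 1 or ABCG2 replicate 2.

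Of 32 cytokine and growth factor receptors measured, 18 fell, 7 rose and 7 did not pass, with a median of -0.77 (11 rose without ABCG2 replicate 2). The rises were led by Il7r, Il18r1 and Flt3. The falls took in the receptors of the myeloid growth factors: Csf2ra, the GM-CSF receptor chain, was at -4.03 and -4.19 against 0.20, 0.23 and 0, and Csf1r, the M-CSF receptor, at -3.16 and -1.92 against 1.12, 1.30 and 1.15. Il6ra fell by 4.04 ± 0.21 and Il13ra1 by 3.73 ± 0.22. Of 13 chemoattractant receptors measured, 8 fell, 3 rose and 2 did not pass. C5ar1, the receptor of complement C5a, fell by 4.88 ± 0.24 and Fpr2, a formyl peptide receptor, by 5.33 ± 0.36. Cxcr3, a receptor of interferon-induced chemokines, was at 2.19 and 2.58 against -1.14, -0.15 and 0, and Gpr18 rose by 2.77 ± 0.25.

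Of 32 proximal antigen receptor signalling genes measured, 4 rose, 14 fell and 14 did not pass, with a median of -0.26, and 7 fell with quantile normalization. Without the probe sets that may bind several transcripts the median was -0.42. Cd79b, given above, is 1 of the 4 rises. Fyn, a Src family kinase, was at 2.03 and 2.07 against -1.17, -0.34 and -0.49. Cblb, a ubiquitin ligase that restrains lymphocyte activation, rose by 1.71 ± 0.30. Syk, the kinase recruited to the receptor, was at -1.26 and -1.06 against 0.20, 0.17 and 0.06, and Prkcd fell by 1.79 ± 0.14. Btk, the kinase downstream of Syk, had -0.03 ± 0.14 and Vav1 0.07 ± 0.12, and neither passed. Syk, Prkcd and many others of this list serve myeloid cells as well.

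**Figure D4:**
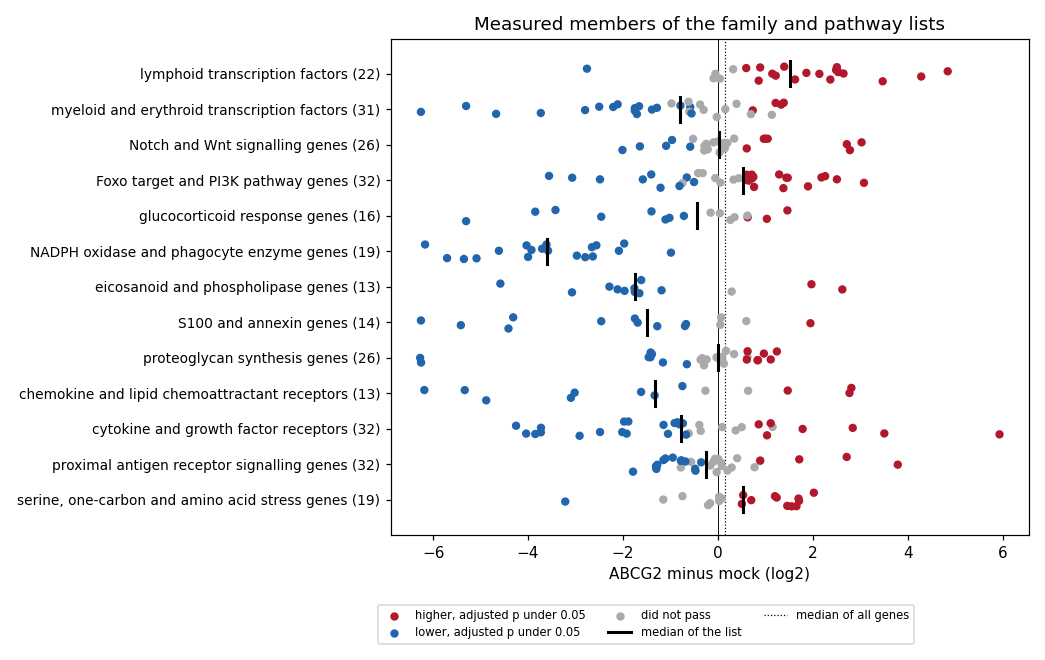
Differences of ABCG2 from mock marrow (log2, 1 point per measured gene) for the lists of transcription factors, receptors, signalling and metabolism, coloured by limma's call, with list medians as black bars. Lymphoid factors have a median of 1.51, myeloid and erythroid factors -0.79, and the phagocyte enzymes -3.61 with every member below 0.

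Of 26 Notch and Wnt signalling genes measured, 7 rose, 5 fell and 14 did not pass, with a median of 0.02 that lay between -0.12 and 0.11 when single arrays were left out. Nrarp, a target gene and inhibitor of Notch signalling, was at 3.05 and 2.23 against -1.01, -0.16 and 0, and Mfng, a glycosyltransferase that modifies Notch receptors, rose by 2.78 ± 0.17. Notch2 fell by 1.64 ± 0.12 while Notch1 rose, a call lost with quantile normalization. On the Wnt side Tcf7l2 rose by 2.72 ± 0.31 and the receptor gene Fzd1 fell by 2.01 ± 0.16. Rbpj, the DNA-binding partner of Notch, fell by 0.58 ± 0.18, a call lost with quantile normalization and without mock replicate 1 or 2 or ABCG2 replicate 1.

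Of 32 genes of the Foxo and PI3K pathway measured, 16 rose, 9 fell and 7 did not pass, with a median of 0.52, and 7 rose and 5 fell with quantile normalization. Targets that Foxo factors induce when PI3K is low were on both sides. Ddit4, an inhibitor of the mTOR complex, was at 2.27 and 3.16 against -1.07, -0.03 and 0, and Sesn1 and Sesn3 rose by 2.26 ± 0.20 and 2.18 ± 0.24. Phlpp1, a phosphatase of Akt, rose by 1.90 ± 0.15. Txnip, Klf2 and Ccng2 fell by 2.48 ± 0.44, 1.58 ± 0.48 and 1.40 ± 0.17, the call of Klf2 being lost with quantile normalization and without mock replicate 2 or 3. Pik3cb, a catalytic subunit of PI3K, was at -3.30 and -3.89 against 0.02, -0.13 and 0.

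The glucocorticoid response genes did not move together. Of 16 measured, 3 rose, 8 fell and 5 did not pass, with a median of -0.44. The median was -0.72 without ABCG2 replicate 2, and 1 rose with quantile normalization. Fkbp5, a chaperone cofactor induced by glucocorticoids, rose by 1.46 ± 0.20, while Tsc22d3 and Per1, also induced by them, had 0.35 ± 0.19 and 0.26 ± 0.53 and did not pass. Among the falls, Cebpd, Tgm2 (-3.42 ± 0.16) and Anxa1 (-2.46 ± 0.19) are also genes of myeloid cells.

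Enzymes and receptors of phagocytes fell throughout. All 19 measured of 24 fell, with a median of -3.61, and 19 fell without any single array and with quantile normalization, which gave a median of -2.11. The NADPH oxidase, which makes superoxide, fell in its membrane chains Cybb (-2.97 ± 0.16) and Cyba (-2.09 ± 0.15) and its cytosolic parts Ncf1 (-3.61 ± 0.13) and Ncf4 (-2.80 ± 0.14). Cybb was at -3.06 and -2.73 against 0.10, 0.16 and -0.04. The Fc receptor gene Fcgr3 was at -3.57 and -4.17 against 0.17, 0.12 and 0.10. Fcgr4 fell by 4.61 ± 0.19, and the gamma chain of both, Fcer1g, by 1.97 ± 0.12. Padi4, which citrullinates histones in neutrophils, fell by 5.35 ± 0.31.

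Lipid mediator genes fell in the leukotriene branch. Of 13 eicosanoid and phospholipase genes measured, 10 fell, 2 rose and 1 did not pass, with a median of -1.75. Alox5, which starts leukotriene synthesis, was at -4.31 and -4.91 against 0, -0.15 and 0.07. Its partner Alox5ap fell by 1.65 ± 0.15 and Lta4h, the next enzyme, by 1.75 ± 0.26. The prostaglandin E receptor gene Ptger2 fell by 3.07 ± 0.25. The rises were in Plcg1, the phospholipase C of T cell receptor and growth factor signalling (2.62 ± 0.18), and Pla2g12a (1.97 ± 0.23), while Plcg2, its B cell counterpart, had 0.29 ± 0.12 and did not pass.

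Of 14 S100 and annexin genes measured, 10 fell, 1 rose and 3 did not pass, with a median of -1.48. With quantile normalization 6 fell, with a median of -0.82, and without ABCG2 replicate 2 the median was -0.87. Without mock replicate 1, 2 rose. Anxa2 was at -4.81 and -5.91 against 0, 0.04 and 0.13 and Anxa5 at -4.16 and -3.96 against 0.52, 0.39 and 0.15. S100a6 fell by 4.31 ± 0.57. S100a10, the binding partner of Anxa2, had 0.05 ± 0.14 and S100a4 0.07 ± 0.13, and neither passed. Anxa6 was the rise, at 0.07 and 1.56 against -1.71, -0.77 and -0.94. Of 26 proteoglycan synthesis genes measured, 7 rose, 8 fell and 11 did not pass, with a median near 0 (-0.15 to 0.03 when single arrays were left out), and 1 rose and 5 fell with quantile normalization. Within that list Csgalnact2, which starts chondroitin chains, and Pxylp1, a phosphatase of the linker xylose, fell (-6.25 ± 0.22 and -6.27 ± 0.28), while Csgalnact1, of the same activity as Csgalnact2, had 0.62 ± 0.30 and did not pass.

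The list of serine, one-carbon and amino acid stress genes joins enzymes that feed nucleotide synthesis with factors induced by amino acid shortage. Of 19 measured, 11 rose, 1 fell and 7 did not pass, with a median of 0.53. With quantile normalization 6 rose and 1 fell, with a median of 0.29, and without ABCG2 replicate 1, 4 fell. Phgdh, the first enzyme of serine synthesis, was at 1.41 and 1.58 against -0.08, 0.03 and -0.12. Shmt1 and Shmt2, which pass the carbon of serine to folate, rose by 1.70 ± 0.15 and 1.66 ± 0.18. Slc7a5, a carrier of large amino acids, rose by 2.02 ± 0.18 (limma adjusted p = 0.000186). The fall was in Asns, asparagine synthetase (-3.22 ± 0.13).

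Genes were also grouped by the letters of their symbols, by a rule set with earlier results of these data known. Of 278 such families with at least 5 measured genes, 15 had 80% or more of their members called in 1 direction, 13 of them higher. Only the C-type lectin (Clec), Elongator (Elp) and Snhg families still reached 80% with quantile normalization. The Gimap GTPases of lymphocytes had all 5 members higher with a median of 3.75, but mock replicate 1 lay low in Gimap4 (-4.45), Gimap8 (-2.83) and Gimap6 (-2.17). With quantile normalization 3 of the 5 passed. The Socs family had 5 of 6 higher, with Socs5 at 2.19 and 2.23 against -0.81, -0.28 and 0 and Socs3 higher by 1.93 ± 0.33, while Socs4 had 0.30 ± 0.19 and did not pass. With quantile normalization 3 of the 6 Socs genes passed.

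Noncoding host genes of small nucleolar RNAs, the Snhg family, were higher in 10 of 11, with a median of 1.46 and 9 of 11 higher with quantile normalization. Snhg4 was at 3.20 and 3.34 against -0.43, 0.06 and 0, and Snhg1 rose by 1.71 ± 0.20. The Elongator subunits, which modify transfer RNA, were higher in 4 of 5 (median 1.39), also with quantile normalization, and the pseudouridine synthases of the Pus family in 4 of 5 (median 1.35), or 2 with quantile normalization. The arginine methyltransferases Prmt were higher in 5 of 6 (median 1.07), with Prmt1 among them (1.54 ± 0.15), and 4 of 6 passed with quantile normalization. Most calls of the Cct chaperonin and Nop ribosome assembly genes were lost with quantile normalization. The 7 Cct chaperonin subunits had a median of 0.67 and all passed, but 1 did with quantile normalization, and of 8 Nop genes 7 passed and 0 did with quantile normalization. Of 5 isocitrate dehydrogenase genes 4 were higher and Idh1, the cytosolic enzyme, lower, at -2.98 and -2.68 against 0.53, 0.38 and 0.37. With quantile normalization only the fall of Idh1 passed.

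The families called lower were the C-type lectins, with 6 of 7 lower and a median of -5.72, and the Lamtor genes, with 4 of 5 lower and a median of -0.52. Clec7a, the beta-glucan receptor, was at -4.16 and -4.21 against 1.71, 1.56 and 1.38. The exception among the lectins was Clec2i, a ligand of an NK receptor, at 2.82 and 2.75 against -0.08, -0.24 and -0.44. The Lamtor subunits, which anchor mTOR signalling to lysosomes, fell by small amounts, and 2 to 3 of the 5 passed when single arrays were left out.

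**Figure D5:**
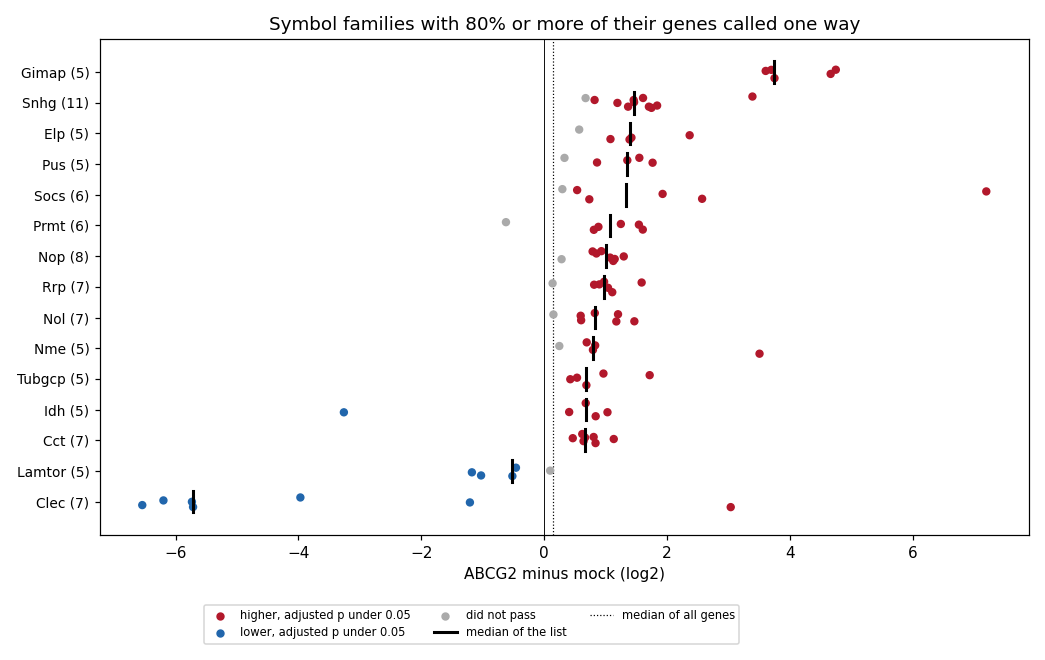
The 15 symbol families with 80% or more of their measured genes called in 1 direction, with 1 point per gene on the axis of the difference of ABCG2 from mock marrow (log2). The Gimap family lies highest (median 3.75) and the Clec family lowest (median -5.72, with Clec2i at 3.04), while the medians (black bars) of the Cct and Nol genes are 0.67 and 0.82.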

How the data were processed

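RNA of bone marrow cells was hybridised to Affymetrix Mouse430_2 arrays, and the submitters' processing notes name MAS5 without a version. The deposited values are logarithms of unstated base, read here as log2, and the median of every probe set over the 7 arrays was 0. Per the file headers, probe sets were kept on a raw signal from 3 to 120534.25 and on Present or Marginal flags for 100% of samples. The value table and the per-sample files held the same values (largest difference 0).

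The 54 control probe sets were set apart, leaving 16255, of which 14229 had 1 gene symbol, 483 several and 1543 none. Gene IDs of 14203 matched RefSeq's table for GRCm38.p6, and 0 symbols changed. A gene's value was the mean over its probe sets with 1 symbol (8378 genes, 3624 with more than 1 probe set). ABCG2 (2 arrays) was compared with mock (3 arrays) by limma 3.58.1 in R 4.3.3 (eBayes after lmFit, both directions tested, Benjamini-Hochberg, threshold 0.05), after the scripts were tested on simulated data. The number of arrays limits the precision.

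The rule for named genes took the 25 largest rises and falls among genes past the threshold whose ABCG2 and mock arrays did not overlap, and up to 8 members of each of 24 gene lists or of a symbol family, plus any member given with its test result. Members, lists, families and motifs were chosen with earlier results of these data known. Alternatives were quantile normalization, array medians set to 0, array weights, a replicate block, robust eBayes, the median over probe sets, fewer probe sets, a test against a 2-fold change, the per-sample files and leaving out each array. Quantile normalization was run on the centred values. No pseudocount was used.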

Additional observations from a re-analysis of the deposited data

How the results depend on the processing

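No gene named in the text and called by limma was called or valued in the opposite direction under any of the 14 alternatives run. The medians of 4 gene lists, between -0.11 and 0.23, did change sign under some of them: erythroid, plasma cell, Notch and Wnt, and proteoglycan synthesis. Quantile normalization was applied to the centred values of the 5 arrays and gives every array the same distribution. Before it the SDs were 0.33 to 0.42 on the mock arrays and 1.06 and 1.13 on the ABCG2 arrays. The part of this setting in lost calls was not tested. It gave 1988 probe sets higher and 2381 lower, and 1354 genes higher and 1459 lower. Of those genes, 1349 and 1448 had the same call as without it and 0 the opposite, and the share of calls that were higher went from 57.6% to 48.1%. The median difference of all genes was then 0.08 in place of 0.15. Against a 2-fold change, limma's treat called 802 probe sets higher and 1131 lower, and 496 genes higher and 659 lower. Leaving out each array in turn gave 4168 to 4635 probe sets higher, 3402 to 3807 lower, 2455 to 2771 genes higher and 1826 to 2039 lower. With the replicate number as a block, 4178 probe sets were higher and 3548 lower, and 2572 genes higher and 1983 lower. The deviations of same-numbered arrays correlated at 0.08 and -0.04. With 2 ABCG2 arrays the deviations of 1 mirror those of the other, so these values cannot show whether the numbers pair the arrays. Of the 50 largest changes, only Gimap4 and Snn lost a call: Gimap4 with quantile normalization (limma adjusted p = 0.0528), against a 2-fold change (0.0816) and without ABCG2 replicate 2 (0.0587), and Snn with quantile normalization (0.0667). Of 409 called genes followed, quantile normalization ended 121 calls, the 2-fold test 197, the block 20 and leaving out 1 array 24 to 33, the cause of which was not tested. The filter on detection limits every count to genes detected on all arrays, and signal over background is not given.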
